A study of Bos taurus with 8 samples.

Results

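The aldehyde, alcohol and hydroxysteroid dehydrogenases of bovine granulosa cells were taken as every gene whose array symbol begins with DHRS, or with ALDH, ADH, AKR, RDH, CBR or HSD followed by a digit. HSD17B7 was left out of the set. The rule used symbols only and no measured value. It found 65 genes on 101 probes, among 15216 genes named on the array. Of these, 62 genes on 94 probes were bright enough to test, among 14138 genes tested, and ADH1C, ALDH3A1 and DHRS13 were not.

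These enzymes move hydrogen between an alcohol and a carbonyl group, or oxidise an aldehyde to an acid, with NAD or NADP as the carrier. In the ovary the hydroxysteroid dehydrogenases make the last steps to progesterone and estradiol, and in the follicle the surge of luteinizing hormone (LH) is the signal that turns estradiol-making granulosa cells into progesterone-making luteal cells. Retinol and aldehyde dehydrogenases act in sequence to make retinoic acid from retinol, and many of the remaining members clear aldehydes that arise from lipids and amino acids.

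RNA of granulosa cells from Holstein Friesian cows was hybridised to 8 2-colour arrays. All the cows had received a progestin implant and prostaglandin for synchronisation, FSH to stimulate several follicles and GnRH to induce the LH surge, so these treatments were common to every group. The groups were cells taken 6 h after the surge from follicles above 8 mm, cells taken 22 h after it from pre-ovulatory follicles, and cells taken 2 h before it from follicles of 6 to 8 mm. Follicle size therefore changed together with time. The cells were scraped from opened follicles and are described in the protocols as mostly mural granulosa cells with some theca cells. Each array set 1 post-LH replicate against 1 pre-LH replicate, with 4 arrays for 6 h on 1 slide and 4 arrays for 22 h on the other. Post-LH RNA was in Cy5 on the arrays numbered 1 and 2 and in Cy3 on those numbered 3 and 4. The design gives 4 biological replicates per time, so by that count pre-LH RNA was used on more than 1 array, and the number of animals behind each replicate is not stated in the labels.

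Per channel, 75.1% to 85.4% of all probes were above background, and 51 of the 62 tested members were above background in all 16 channels. None of the member probes reached the limit for saturation on any array. Pre-LH levels of AKR7A2 were 15.03 to 15.29. On the arrays numbered 1 to 3 those of ALDH1A1 were 14.9 to 15.17 and those of ALDH9A1 14.62 to 15.05. The granulosa markers INHA and SERPINE2, which reached the limit on some arrays, had pre-LH means of 15.09 to 15.31. Whether capping short of the limit affected the falls of these 3 members was not tested. The arrays numbered 4 stood apart in their pre-LH levels on both slides. Over probes, the SD of the pre-LH difference between them and numbers 1 to 3 of the other slide was 0.87 to 0.918. Between different numbers from 1 to 3 across slides it was 0.211 to 0.269. In post-LH RNA the SD for number 4 across slides was 0.91 to 0.99. That value also holds the change between the times, since each slide had its own time. Without a post-LH value among numbers 1 to 3, it cannot show whether number 4 stood apart there. Member calls that ended when both arrays numbered 4 were left out are given that way beside the result. Changes below are log2 ratios of post-LH over pre-LH RNA ± SE (n = 4 arrays per time). The SE is limma's moderated value and is the same for both times of a gene. The words rose and fell are used where limma's p was under 0.05 after Benjamini-Hochberg adjustment, which ran over every tested probe. A gene stands at its brightest tested probe. In these bulk samples, fewer cells of a type and less RNA per cell cannot be told apart.

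At 6 h most of the members that changed had fallen, and at 22 h about as many had risen as fallen. Of 62 members, 21 changed at 6 h (33.9%, against 24.3% of all tested genes). Of these, 18 fell (29%, against 12.8% of all genes) and 3 rose (4.84%, against 11.5%). At 22 h 17 members changed (27.4%, against 20.4%), of which 9 rose (14.5%, against 9.75%) and 8 fell (12.9%, against 10.6%). The difference between the changes at 22 h and 6 h passed for 19 members (30.6%, against 15.1%), with 16 higher at 22 h (25.8%, against 7.72%) and 3 lower (4.84%, against 7.41%). Since all 22 h arrays were on 1 slide and all 6 h arrays on the other, slide and time cannot be told apart in this last comparison. Median changes over the set were small, at -0.07 for 6 h, 0.01 for 22 h and 0.08 for the difference, against -0.0039, 0.0056 and 0.00756 over all genes. Among members that passed, 6 were down by 2-fold or more at 6 h and none up by that much, and 2 were up and 4 down at 22 h. At an unadjusted p under 0.05, 26 fell and 5 rose at 6 h, and 11 fell and 16 rose at 22 h. Counts of 2-fold changes and at unadjusted p, here and for the groups and lists below, were not made over all tested genes. They therefore cannot be set against the whole array. Without both arrays numbered 4, 12 members changed at 6 h (19.4%, against 17.3% of all genes) and 10 at 22 h (16.1%, against 15.7%). These shares lay near those of all genes, though 11 of the 12 fell at 6 h (17.7%, against 8.78%). Of the 10 at 22 h, 5 fell. The difference then passed for 11 members (17.7%, against 12.2%), of which 2 were lower. Median centring in place of loess left 0 members at 6 h, 1 at 22 h and 0 for the difference, and 0.601%, 0.962% and 0.156% of all genes. It ended every member call except the fall of ALDH1A1 at 22 h, which is mostly not repeated beside the results below. Of the single arrays, leaving out 6 h replicate 1 left 13 members at 6 h (21%, against 13.9% of all genes). Leaving out 22 h replicate 3 left 8 at 22 h (12.9%, against 10.4%) and 12 for the difference (19.4%, against 9.13%). Leaving out 6 h replicate 2 left 11 for the difference (17.7%, against 8.4%).

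**Figure D1:**
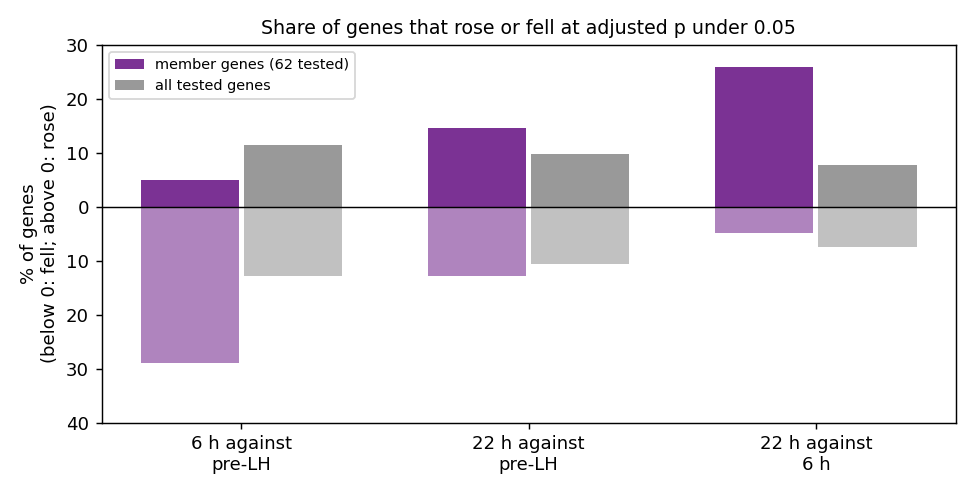
Percent of genes that rose (above 0) or fell (below 0) in each comparison, for the 62 tested members (purple) and all 14138 tested genes (grey). At 6 h 29% of members and 12.8% of all genes fell, and 25.8% of members and 7.72% of all genes were higher at 22 h than at 6 h.

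Which members changed went with how bright their probes were. The 29 members that passed in at least 1 comparison had a median log2 intensity of 10.75, against 7.18 for the 33 that passed in none. Below an intensity of 7.5 lay 27 members, of which 1 passed, and 28 of the 35 members at or above that line passed. These counts over any comparison were not made over all tested genes. Brighter genes passed more often over the whole array too. Of all genes brighter than the median, 39% changed at 6 h, against 24.3% of all tested genes, so this link is not particular to the members. Among members brighter than the median of all tested genes, 20 of 31 changed at 6 h (64.5%), against 39% of all genes as bright. At 22 h it was 41.9% against 34.2%, and between the times it was 51.6% against 24.9%. Of the 27 members below 7.5, 16 were above background in all 16 channels.

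**Figure D2:**
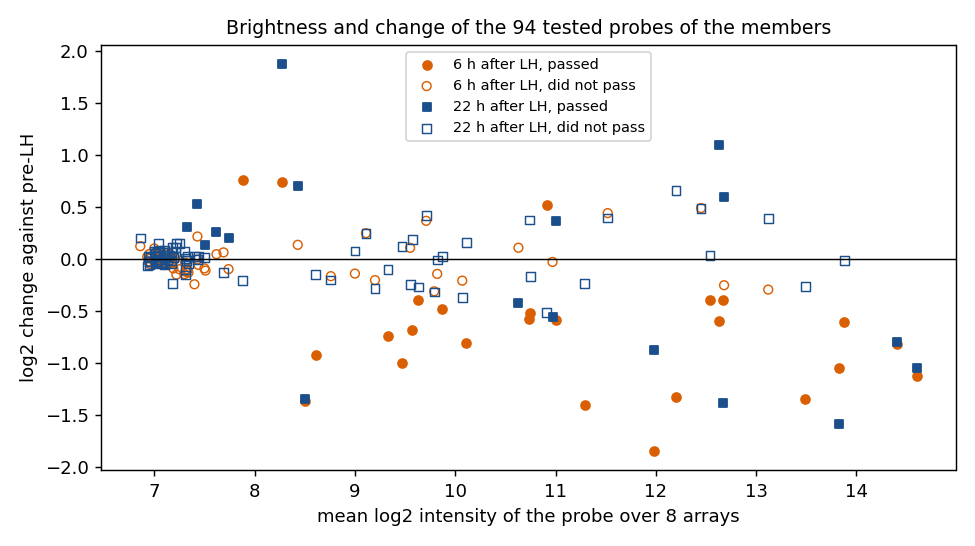
Log2 change against pre-LH RNA of each of the 94 tested member probes (vertical axis) by its mean log2 intensity over the 8 arrays (horizontal axis). Filled points passed at adjusted p under 0.05. The points crowd near 0 below an intensity of 7.5 and spread widely above it.

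The enzymes of steroid hormones were mostly lower or little changed at 6 h. Of 13 tested, 4 fell and none rose at 6 h, 1 fell and 1 rose at 22 h, and 3 were higher at 22 h than at 6 h, with medians of -0.00342, 0.02 and 0.02. The shares that changed were 30.8% at 6 h, against 24.3% of all tested genes, 15.4% at 22 h, against 20.4%, and 23.1% for the difference, against 15.1%. At an unadjusted p under 0.05, none rose at 6 h. HSD3B1, the 3-beta-hydroxysteroid dehydrogenase that makes progesterone from pregnenolone, had log2 intensities of 11.84, 11.1, 11.12 and 10.34 in 6 h RNA, against 12.92, 12.78, 12.57 and 11.45 in the pre-LH RNA of the same arrays. In 22 h RNA it had 13.59, 12.41, 13.67 and 12.44, against 12.87, 12.75, 12.54 and 11.3 in pre-LH RNA. Every 6 h replicate was below its pre-LH partner, and 3 of the 4 replicates of 22 h were above theirs, with replicate 2 below. HSD3B1 thus fell by 1.33 ± 0.21 at 6 h, or 2.51-fold (adjusted p = 0.00551). At 22 h its change was 0.66 ± 0.21 and did not pass (adjusted p = 0.0831). The difference of 1.99 ± 0.29 between 22 h and 6 h passed (adjusted p = 0.00716), and it was the widest upward difference of any member. Without both arrays numbered 4 the 6 h change was -1.33 (adjusted p = 0.053) and the difference 1.91 (adjusted p = 0.057), so both calls ended while the sizes moved little. Without 22 h replicate 2, the 22 h change was 0.96 and passed (adjusted p = 0.00766). It also passed with the authors' processed values (0.62, adjusted p = 0.0398). Genes of the 3-beta family are close copies, and whether the probe also binds another copy was not tested.

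HSD17B1, which turns estrone into estradiol in granulosa cells, was low at both times. Its log2 ratios were -1.67, -1.4, -1.24 and -1.16 at 6 h and -0.86, -1.17, -1.9 and -1.46 at 22 h, so all 8 arrays lay below 0 and the times overlapped. It fell by 1.37 ± 0.16 at 6 h (2.58-fold, adjusted p = 0.00177) and fell by 1.35 ± 0.16 at 22 h (2.55-fold, adjusted p = 0.00211). The difference between the times was 0.02 ± 0.23 (adjusted p = 0.976). Both falls kept their call under every alternative run except median centring.

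HSD17B11, a dehydrogenase of lipid droplets that also acts on androgens, had log2 ratios of -0.45, -0.42, -0.67 and -0.75 at 6 h and -0.14, 0.64, 0.42 and 0.59 at 22 h. It fell by 0.57 ± 0.13 at 6 h (adjusted p = 0.0259) and was at 0.38 ± 0.13 at 22 h (adjusted p = 0.119), with a difference of 0.95 ± 0.19 (adjusted p = 0.0221). The times did not overlap, but the call at 6 h ended when any of the 4 arrays of 6 h was left out (adjusted p = 0.0766 to 0.111). The call for the difference ended without any of the 6 h arrays or without 22 h replicate 2, 3 or 4 (adjusted p = 0.0509 to 0.0748). These 2 calls had adjusted p of 0.128 and 0.108 without both arrays numbered 4. Without 22 h replicate 1, HSD17B11 was at 0.59 at 22 h and passed (adjusted p = 0.00162). Its other probe was dim and near 0 at both times. HSD11B1L, a short-chain relative of HSD11B1, had ratios of -0.63, -0.66, -0.99 and -0.96 at 6 h and 0.68, -0.12, 0.05 and 0.04 at 22 h. It fell by 0.81 ± 0.11 at 6 h (adjusted p = 0.0035) and differed between the times by 0.97 ± 0.16 (adjusted p = 0.0111). Without both arrays numbered 4 that difference was 0.96 (adjusted p = 0.0716). Its 2 other tested probes were dim and did not pass.

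HSD11B1, which regenerates active glucocorticoid inside cells, was the only steroid enzyme that rose at 22 h. The 4 arrays of 22 h gave log2 ratios of 0.23, 0.03, 0.53 and 0.26, against 0.01, -0.06, 0.12 and 0.13 on those of 6 h. All 4 arrays of 22 h were above 0, the times overlapped, and the change at 22 h was 0.26 ± 0.06 (adjusted p = 0.0224). The probe had an intensity of 7.62, close to the line of 7.5 below which few members passed. A second probe, of intensity 7.43, rose by 0.53 (adjusted p = 0.0324), and 2 dimmer probes did not pass. The call ended without 22 h replicate 1 or 3 (adjusted p = 0.0906 and 0.0835) and without both arrays numbered 4 (0.31, adjusted p = 0.0534). It also ended without the dye term (adjusted p = 0.0654), with the mean of all 4 probes (adjusted p = 0.0541) and with the 22 h slide alone (adjusted p = 0.157). HSD11B2, which inactivates glucocorticoid, was at -0.05 at 6 h and 0.06 at 22 h. Its probe was dim, as were those of HSD17B2, HSD17B14, AKR1C4 and AKR1D1, whose changes lay between -0.06 and 0.05 at both times and did not pass.

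**Figure D3:**
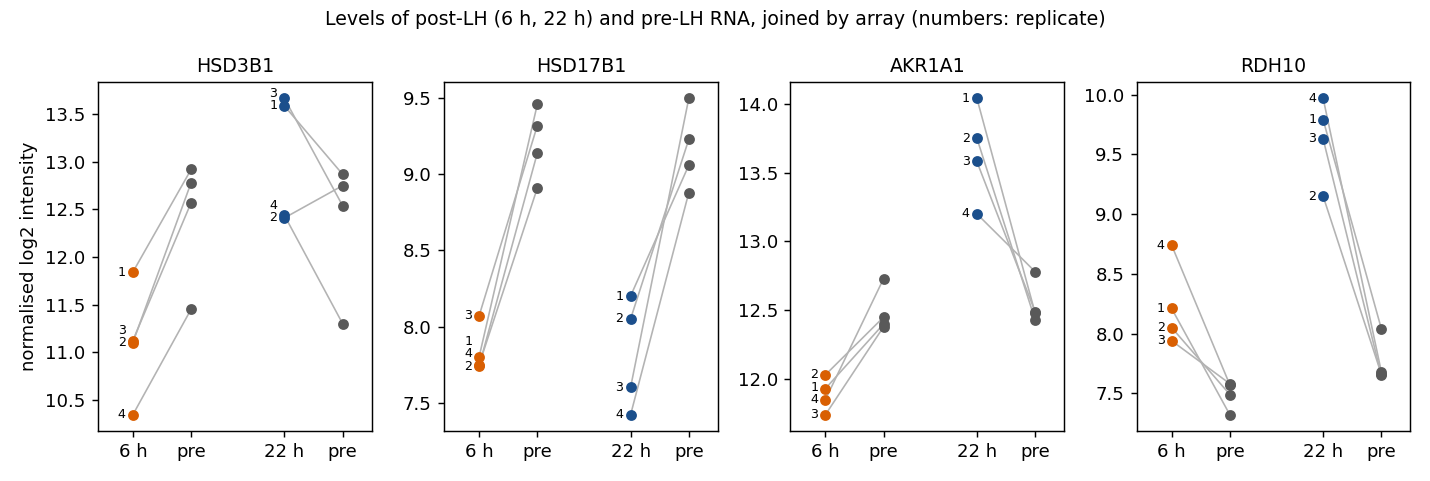
Normalised log2 intensity of 4 members in post-LH RNA (orange, 6 h; blue, 22 h) and in the pre-LH RNA of the same array (grey), joined by array and numbered by replicate. Each panel has its own vertical range. HSD3B1 lay below pre-LH RNA on all 4 arrays of 6 h and above it on 3 of 4 arrays of 22 h, HSD17B1 lay below on all 8, AKR1A1 below at 6 h and above at 22 h on all arrays, and RDH10 above on all 8.

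The next group was 4 members that carry the hydroxysteroid name but act on fatty acids, sterol side chains or related acyl groups, and CBR4, which works with one of them. Of these 5, HSD17B4, HSD3B7 and CBR4 fell and none rose at 6 h, 1 fell and 1 rose at 22 h, and 2 were higher and 1 lower at 22 h than at 6 h. The shares that changed were 60% at 6 h, against 24.3% of all tested genes, 40% at 22 h, against 20.4%, and 60% for the difference, against 15.1%, each over 5 genes only. At an unadjusted p under 0.05, 1 rose at 6 h. HSD17B4, the peroxisomal bifunctional enzyme of fatty acid beta-oxidation, had log2 ratios of -0.4, -0.52, -0.77 and -0.66 at 6 h and 0.04, 0.53, 0.48 and 0.43 at 22 h. Every 6 h array was below 0 and every 22 h array above it. HSD17B4 fell by 0.59 ± 0.09 at 6 h (adjusted p = 0.00606) and rose by 0.37 ± 0.09 at 22 h (adjusted p = 0.0417), with a difference of 0.96 ± 0.13 (adjusted p = 0.00583). With replicate number as a block, which pairs same-numbered arrays, the rise at 22 h had an adjusted p of 0.081. It also ended when any 6 h array, or 22 h replicate 2, 3 or 4, was left out (adjusted p = 0.0526 to 0.189). The rise was lost with the authors' processed values and with the 22 h slide alone too. Without both arrays numbered 4 the fall at 6 h had an adjusted p of 0.0584 and the rise at 22 h one of 0.196.

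HSD3B7, which acts on 7-alpha-hydroxylated sterols on the way to bile acids, was the member of this group that was lowest at the later time. Its log2 ratios were -0.35, -0.17, -0.74 and -0.32 at 6 h and -1.23, -1.48, -1.59 and -1.25 at 22 h, with all 8 arrays below 0 and no overlap between the times. It fell by 0.39 ± 0.09 at 6 h (adjusted p = 0.027) and fell by 1.39 ± 0.09 at 22 h (2.61-fold, adjusted p = 0.000197), a difference of -0.99 ± 0.13 (adjusted p = 0.00496). The 6 h call ended without 6 h replicate 1, 2 or 3 (adjusted p = 0.0637 to 0.119). CBR4 and HSD17B8 form the ketoacyl reductase of mitochondrial fatty acid synthesis. CBR4 fell by 0.48 ± 0.06 at 6 h (adjusted p = 0.0017), with ratios of -0.43, -0.42, -0.46 and -0.62, and was at 0.03 ± 0.06 at 22 h. It differed between the times by 0.51 ± 0.08 (adjusted p = 0.00893), and by 0.2 with the mean of its 3 tested probes (adjusted p = 0.0839). CBR4 also lost that difference with the authors' processed values. Its partner HSD17B8 did not pass at 6 h (-0.21 ± 0.17) or at 22 h (-0.37 ± 0.17), and its 22 h ratios ran from -0.95 to 0.27. HSD17B10, a mitochondrial enzyme of isoleucine breakdown, was at 0.49 ± 0.18 at both times and above 0 on all 8 arrays, yet the arrays ranged from 0.04 to 1.1 and neither change passed (adjusted p = 0.126 and 0.145). Its 3 tested probes gave 0.37 to 0.49 at 6 h and 0.4 to 0.49 at 22 h.

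The retinoid enzymes held all 3 members that rose at 6 h. Of 15 tested, 3 rose and 1 fell at 6 h, 1 rose and 2 fell at 22 h, and 1 was higher and 2 lower at 22 h than at 6 h. The shares that changed lay near those of all tested genes, with 26.7% at 6 h, against 24.3%, 20% at 22 h, against 20.4%, and 20% for the difference, against 15.1%. RDH10, the main enzyme that oxidises retinol to retinaldehyde, had log2 intensities of 8.21, 8.05, 7.94 and 8.74 in 6 h RNA, against 7.32, 7.49, 7.58 and 7.57 in the pre-LH RNA of those arrays. In 22 h RNA it had 9.79, 9.15, 9.63 and 9.97, against 8.04, 7.66, 7.65 and 7.68 in pre-LH RNA. Every post-LH value was above its pre-LH partner, and the 22 h values all exceeded the 6 h values. RDH10 rose by 0.75 ± 0.15 at 6 h (1.68-fold, adjusted p = 0.014) and by 1.88 ± 0.15 at 22 h (3.68-fold, adjusted p = 0.000384), the largest rise of any member. The difference of 1.13 ± 0.21 passed (adjusted p = 0.017). The 6 h call ended without 6 h replicate 1, 2 or 4 (adjusted p = 0.0653 to 0.078), and the call for the difference without 6 h replicate 2 or 22 h replicate 3 (adjusted p = 0.065 and 0.0563). Without both arrays numbered 4, RDH10 was at 0.61 at 6 h (adjusted p = 0.068) and still rose by 1.74 at 22 h (adjusted p = 0.00507).

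RDH11 and RDH13, which reduce retinaldehyde to retinol, were high at 6 h and not at 22 h. RDH11 had log2 ratios of 1.1, 1.2, 0.52 and 0.22 at 6 h and -0.16, -0.12, -0.4 and -0.14 at 22 h. It rose by 0.76 ± 0.11 at 6 h (1.69-fold, adjusted p = 0.00376) and was at -0.21 ± 0.11 at 22 h (adjusted p = 0.285), a difference of -0.97 ± 0.15 (adjusted p = 0.0095). The times did not overlap, and the 6 h arrays with post-LH RNA in Cy5 gave the 2 higher ratios. RDH13, a mitochondrial enzyme, had ratios of 0.32, 0.46, 0.4 and 0.91 at 6 h and -0.16, -0.93, -0.35 and -0.62 at 22 h, again with no overlap. Its rise of 0.52 ± 0.14 at 6 h (adjusted p = 0.0412) did not pass with the replicate block (adjusted p = 0.071), nor without any 1 of the 6 h arrays or without 22 h replicate 3 or 4 (adjusted p = 0.0529 to 0.158), nor without both arrays numbered 4 (adjusted p = 0.181). At 22 h it was at -0.52 ± 0.14 (adjusted p = 0.0501). That change passed in several alternatives and not in the rest. It passed with the authors' processed values (-0.54, adjusted p = 0.0137) and without 22 h replicate 1 (-0.69, adjusted p = 0.0121). The difference of -1.04 ± 0.19 passed (adjusted p = 0.0183), and it ended without 6 h replicate 1 or 2, without 22 h replicate 3 (adjusted p = 0.0506 to 0.0673) and without both arrays numbered 4 (adjusted p = 0.0863).

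RDH14, another reductase of retinaldehyde, had ratios of -0.07, -0.25, 0.37 and -0.15 at 6 h and -0.81, -0.41, -0.52 and -0.5 at 22 h. It fell by 0.56 ± 0.1 at 22 h (adjusted p = 0.0103), a call that ended without 22 h replicate 3 (adjusted p = 0.0644) or without both arrays numbered 4 (adjusted p = 0.0553). That call was also lost with the 22 h slide alone. ALDH1A1, which oxidises retinaldehyde to retinoic acid, fell at both times. Its ratios were -0.91, -0.99, -1.25 and -1.04 at 6 h and -2.57, -0.99, -1.49 and -1.31 at 22 h, with replicate 1 of 22 h the lowest. It fell by 1.04 ± 0.23 at 6 h (2.06-fold, adjusted p = 0.0226) and fell by 1.59 ± 0.23 at 22 h (3.01-fold, adjusted p = 0.00509). The 6 h call ended without any 1 of the 6 h arrays (adjusted p = 0.0782 to 0.089) and without both arrays numbered 4 (adjusted p = 0.119). The 22 h call held in each fit that left out 1 array, and was lost with the 22 h slide alone (adjusted p = 0.1). Its second probe, with an intensity of 6.96, was at 0.01 and 0.02. ALDH1A2, ALDH1A3, RDH5, RDH12 and DHRS9 had dim probes, stood between -0.13 and 0.11 at both times, and did not pass. DHRS4, a retinal reductase of peroxisomes, was at -0.14 and -0.01 with a bright probe.

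**Figure D4:**
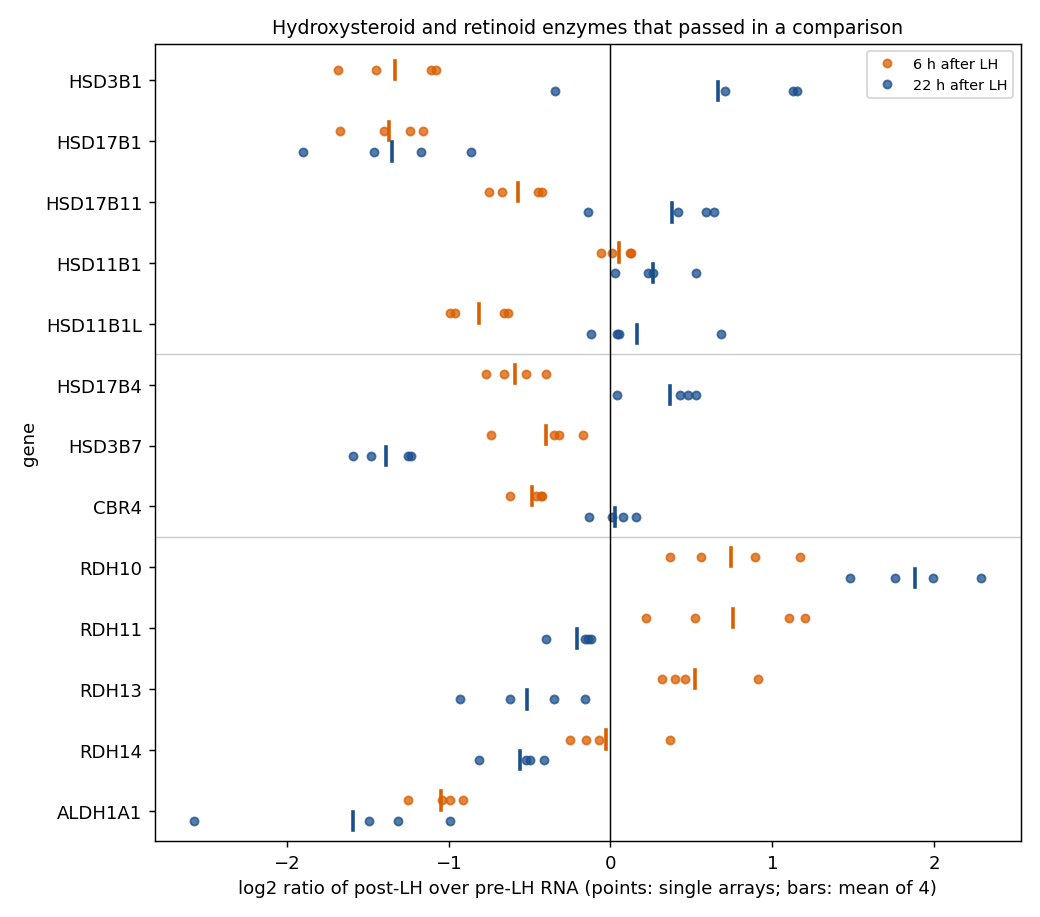
Log2 ratio of post-LH over pre-LH RNA on each of the 4 arrays of 6 h (orange) and of 22 h (blue) for the steroid, side-chain and retinoid members that passed in at least 1 comparison, with the mean as a bar. Grey lines part the 3 groups. The blue points of RDH10 lie right of its orange points, while those of RDH11 and RDH13 lie left of 0 and their orange points right of it.

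Among the carbonyl and prostaglandin reductases, 2 of 7 fell and none rose at 6 h, and at 22 h 2 rose and 1 fell. That was 28.6% changed at 6 h, near the 24.3% of all tested genes, and 42.9% at 22 h, against 20.4%. At an unadjusted p under 0.05, none rose and 5 fell at 6 h. AKR1A1, the general aldehyde reductase, had log2 ratios of -0.47, -0.43, -0.63 and -0.88 at 6 h and 1.57, 1.32, 1.09 and 0.41 at 22 h. All arrays of 6 h were below 0 and all of 22 h above it. AKR1A1 fell by 0.6 ± 0.12 at 6 h (adjusted p = 0.014) and rose by 1.1 ± 0.12 at 22 h (2.14-fold, adjusted p = 0.00141), so that it stood 3.24-fold higher at 22 h than at 6 h on the scale of these ratios (1.7 ± 0.17, adjusted p = 0.00166). The 6 h call ended without 6 h replicate 1, 2 or 4 (adjusted p = 0.0622 to 0.08). The 22 h call was lost with the 22 h slide alone (adjusted p = 0.0551). Its second probe, of intensity 7.25, was at -0.1 and 0.15, with a difference of 0.25 that passed (adjusted p = 0.0369), and it also carried a dye effect.

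AKR7A2, a reductase of succinic semialdehyde and other aldehydes, fell at both times. Its ratios were -0.78, -0.94, -1.59 and -1.21 at 6 h and -0.81, -1.03, -1.57 and -0.79 at 22 h. It fell by 1.13 ± 0.13 at 6 h (2.19-fold, adjusted p = 0.00166) and fell by 1.05 ± 0.13 at 22 h (2.07-fold, adjusted p = 0.00254). All 8 arrays were below 0, the times overlapped, and the difference was 0.08 ± 0.18 (adjusted p = 0.845). With the 22 h slide alone the 22 h fall had an adjusted p of 0.069. AKR1B1, the aldose reductase that makes prostaglandin F2-alpha in the bovine uterus, was at -0.31 ± 0.1 at 6 h (adjusted p = 0.0799) and -0.32 ± 0.1 at 22 h (adjusted p = 0.0876). With the replicate block the 6 h change passed (adjusted p = 0.0464). CBR3, a close relative of CBR1, had a probe of intensity 7.74 and rose by 0.2 ± 0.04 at 22 h (adjusted p = 0.0145). It lost that call without 22 h replicate 1 or 3 (adjusted p = 0.0704 and 0.0798) and with the 22 h slide alone. Its difference of 0.3 ± 0.06 passed (adjusted p = 0.0167), and ended without 6 h replicate 2 or 22 h replicate 3 (adjusted p = 0.0613 and 0.0526) and without both arrays numbered 4 (adjusted p = 0.0539). A second CBR3 probe, of intensity 7.3, passed neither at 22 h (0.08, adjusted p = 0.349) nor for the difference (0.22, adjusted p = 0.0782). CBR1, the carbonyl reductase that acts on prostaglandin E2, was dim and stood at -0.1 and 0.03.

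The aldehyde dehydrogenases outside the retinaldehyde group had the most members down at 6 h. Of 13 tested, 6 fell and none rose at 6 h, 2 fell and 2 rose at 22 h, and 6 were higher and none lower at 22 h than at 6 h, with medians of -0.29, 0.02 and 0.56. The shares were 46.2% down at 6 h, against 12.8% of all tested genes, 30.8% changed at 22 h, against 20.4%, and 46.2% higher at 22 h than at 6 h, against 7.72%. At an unadjusted p under 0.05, none rose at 6 h and none was lower at 22 h than at 6 h. ALDH3B1, which oxidises aldehydes from membrane lipids, had log2 ratios of -1.88, -1.62, -1.93 and -1.95 at 6 h and -0.59, -1.02, -0.97 and -0.93 at 22 h. The times did not overlap and all 8 arrays were below 0. It fell by 1.85 ± 0.07 at 6 h (3.6-fold, adjusted p = 2.7e-05), the largest fall of any member, and fell by 0.88 ± 0.07 at 22 h (adjusted p = 0.000494), with a difference of 0.97 ± 0.1 (adjusted p = 0.00226). These calls held under every alternative run except median centring. ALDH3A2, the fatty aldehyde dehydrogenase of the endoplasmic reticulum, had ratios of -1.06, -1.26, -1.73 and -1.34 at 6 h and -0.16, -0.6, -0.33 and 0.03 at 22 h. It fell by 1.35 ± 0.13 at 6 h (2.54-fold, adjusted p = 0.000839) and was at -0.27 ± 0.13 at 22 h (adjusted p = 0.254). The difference of 1.08 ± 0.18 passed (adjusted p = 0.0124), and without both arrays numbered 4 it was 0.98 (adjusted p = 0.0503). Of its 4 tested probes, the 3 brighter ones fell at 6 h by 0.92 to 1.41, and the fourth, of intensity 7.1, did not pass.

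Several members work on amino acids or amines. ALDH7A1, of lysine breakdown, had ratios of -0.77, -0.49, -0.54 and -0.91 at 6 h and 0.09, 0.43, 0.16 and 0.08 at 22 h. It fell by 0.68 ± 0.08 at 6 h (adjusted p = 0.00202) and differed between the times by 0.87 ± 0.12 (adjusted p = 0.00532). A second probe gave -1 at 6 h and passed, and another of similar brightness gave -0.14 and did not. ALDH18A1, of proline synthesis, fell by 0.61 ± 0.1 at 6 h (adjusted p = 0.0058), with ratios of -0.57, -0.41, -0.74 and -0.7, and stood at -0.01 at 22 h. Its difference of 0.6 ± 0.13 (adjusted p = 0.0347) ended without any 1 of the 6 h arrays or without 22 h replicate 2 or 3 (adjusted p = 0.0547 to 0.0982), and without both arrays numbered 4 (adjusted p = 0.0671). ALDH4A1, of proline breakdown, was at -0.29 ± 0.13 at 6 h and 0.4 ± 0.13 at 22 h and did not pass. ALDH9A1, which makes gamma-aminobutyrate from its aldehyde, fell by 0.82 ± 0.2 at 6 h (adjusted p = 0.034) and fell by 0.8 ± 0.2 at 22 h (adjusted p = 0.0427). At 22 h its arrays split by dye, with -1.7 and -1.35 where post-LH RNA was in Cy5 and -0.04 and -0.11 where it was in Cy3. Both ALDH9A1 calls ended with the replicate block (adjusted p = 0.0765 and 0.0908). The 6 h call also ended without any 1 of the 6 h arrays (adjusted p = 0.0674 to 0.122), and the 22 h call without any 1 of the 22 h arrays or 6 h replicate 1, 2 or 3 (adjusted p = 0.061 to 0.132). They had adjusted p of 0.143 and 0.072 without both arrays numbered 4.

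A pair of mitochondrial members stood higher at 22 h. ALDH2, the acetaldehyde dehydrogenase, had ratios of 0.04, -0.24, -0.59 and -0.22 at 6 h and 0.74, 0.4, 0.64 and 0.64 at 22 h, with no overlap. It rose by 0.6 ± 0.1 at 22 h (1.52-fold, adjusted p = 0.00756) and differed between the times by 0.85 ± 0.14 (adjusted p = 0.0103). Without 22 h replicate 3 the rise had an adjusted p of 0.0529, and without both arrays numbered 4 neither the rise (adjusted p = 0.0674) nor the difference (adjusted p = 0.0567) passed. ALDH1L2, of mitochondrial folate metabolism, had ratios of 0.45, 0.3, 0.01 and -0.21 at 6 h and 0.68, 0.77, 0.52 and 0.83 at 22 h. It rose by 0.7 ± 0.09 at 22 h (1.63-fold, adjusted p = 0.00234), and its difference of 0.56 ± 0.12 (adjusted p = 0.0291) did not pass with the replicate block (adjusted p = 0.076). That difference also ended without 6 h replicate 2, 3 or 4 and without 22 h replicate 2 or 3 (adjusted p = 0.0558 to 0.0855).

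**Figure D5:**
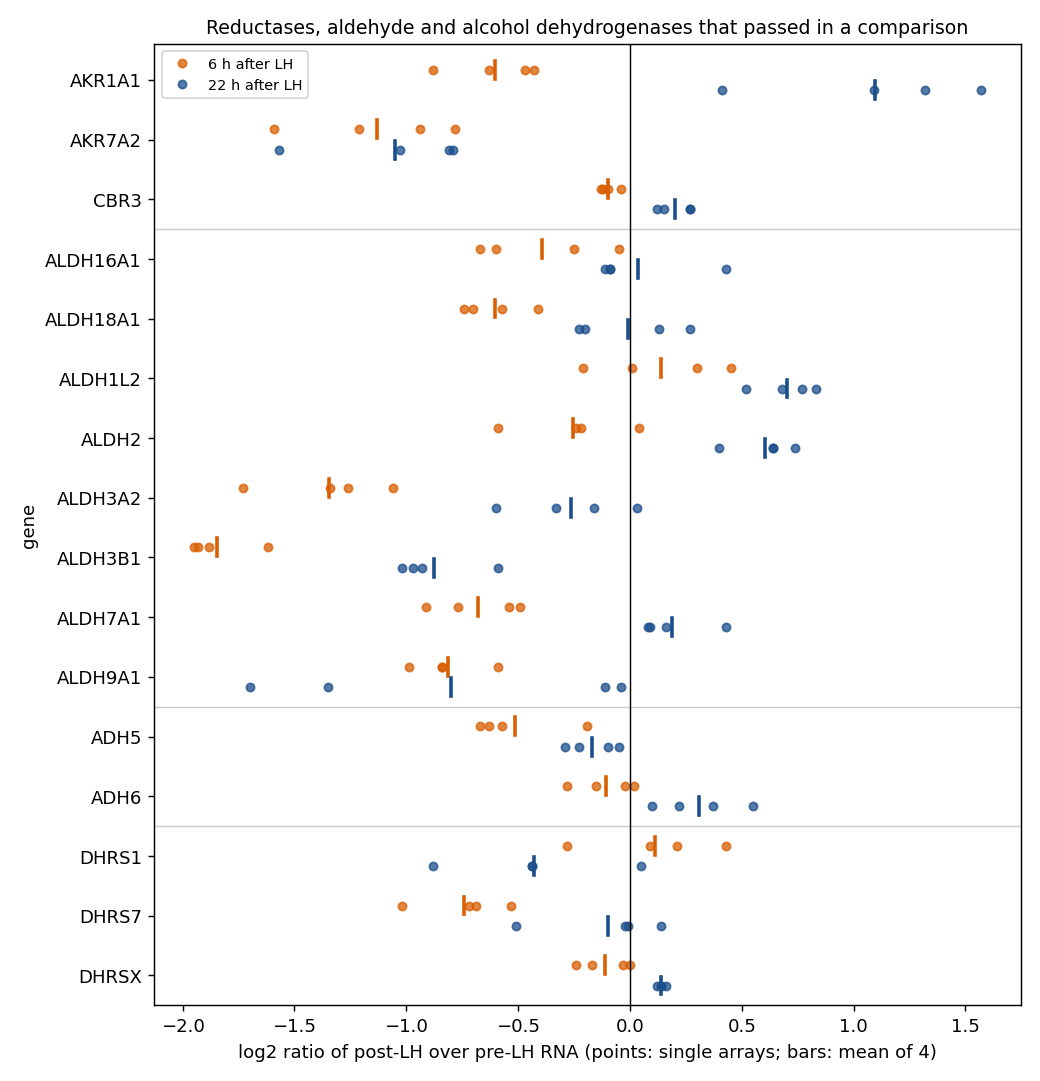
Log2 ratio of post-LH over pre-LH RNA on each of the 4 arrays of 6 h (orange) and of 22 h (blue) for the reductases, aldehyde dehydrogenases, alcohol dehydrogenases and other short-chain members that passed in at least 1 comparison, with the mean as a bar. ALDH3B1 lies furthest left at 6 h, and the 22 h points of AKR1A1 lie right of 0 while its 6 h points lie left of it.

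Of the alcohol dehydrogenases, ADH5, which clears formaldehyde bound to glutathione, fell by 0.52 ± 0.08 at 6 h (adjusted p = 0.00616). Its ratios were -0.19, -0.67, -0.63 and -0.57 at 6 h and -0.29, -0.05, -0.1 and -0.23 at 22 h, so all 8 arrays were below 0, and without both arrays numbered 4 the 6 h change had an adjusted p of 0.0604. DHRS7, a short-chain reductase of the endoplasmic reticulum, fell by 0.74 ± 0.09 at 6 h (adjusted p = 0.00198) with ratios of -0.72, -1.02, -0.53 and -0.69. At 22 h its ratios were -0.51, -0.01, -0.02 and 0.14, and the difference of 0.64 ± 0.13 (adjusted p = 0.0224) did not pass with the replicate block (adjusted p = 0.0606). The DHRS7 difference also ended without 6 h replicate 2, 3 or 4 and without 22 h replicate 3 or 4 (adjusted p = 0.0511 to 0.0779), and without both arrays numbered 4 (adjusted p = 0.111). It was lost with the authors' processed values too. The remaining calls were small and lay outside the rule for named genes, so these members were named after their values were seen. ALDH16A1 fell by 0.39 ± 0.09 at 6 h, ADH6 rose by 0.31 ± 0.08 at 22 h, DHRS1 fell by 0.42 ± 0.11 at 22 h, and DHRSX rose by 0.14 ± 0.04 at 22 h and was higher by 0.25 ± 0.05 at 22 h than at 6 h. Each of these calls ended without 1 of several arrays, with adjusted p up to 0.107 for ALDH16A1, 0.171 for ADH6, 0.201 for DHRS1 and 0.206 for DHRSX, and those of ALDH16A1, ADH6 and DHRSX ended with the replicate block. Without both arrays numbered 4 the adjusted p was 0.124 for ALDH16A1, 0.0523 for DHRS1, and 0.0992 and 0.0506 for the rise and the difference of DHRSX. The other tested probes of ADH6 (0.02) and DHRS1 (-0.13 and -0.23) did not pass at 22 h. The 33 members that passed in no comparison ranged from -0.31 to 0.49 at 6 h and from -0.37 to 0.49 at 22 h.

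The genes that work beside these enzymes were counted from lists. Of 14 tested genes of retinoid handling (19 listed), 2 rose and 1 fell at 6 h and 2 rose and none fell at 22 h. The shares that changed, 21.4% at 6 h and 14.3% at 22 h, were below the 24.3% and 20.4% of all tested genes. RETSAT, the retinol saturase, fell by 1.16 ± 0.12 at 6 h (adjusted p = 0.00103) and rose by 0.9 ± 0.12 at 22 h (adjusted p = 0.00317). BCO2, which cleaves carotenoids, rose by 1.51 ± 0.08 at 6 h (adjusted p = 8.9e-05) and by 0.79 ± 0.08 at 22 h (adjusted p = 0.00125). RBP4, the retinol carrier, rose by 0.61 ± 0.15 at 6 h (adjusted p = 0.0311), while CYP26A1, which breaks down retinoic acid, was dim and did not pass. At an unadjusted p under 0.05, 1 gene of this list was lower at 22 h.

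Of 14 tested partners of steroid synthesis (18 listed), 7 fell and 1 rose at 6 h and 7 fell and 2 rose at 22 h, with medians of -0.42 and -0.38. The shares that changed were 57.1% and 64.3%, against 24.3% and 20.4% of all tested genes. CYP19A1, the aromatase that makes estrogens from androgens, fell by 1.74 ± 0.27 at 6 h (adjusted p = 0.00531) and fell by 2.47 ± 0.27 at 22 h (adjusted p = 0.00145). STAR, which brings cholesterol into mitochondria, fell by 0.47 ± 0.11 at 6 h (adjusted p = 0.0285) and fell by 0.8 ± 0.11 at 22 h (adjusted p = 0.00391). CYP11A1, which makes the pregnenolone that HSD3B1 uses, was at -0.67 ± 0.21 at 6 h (adjusted p = 0.0723) and fell by 1.47 ± 0.21 at 22 h (adjusted p = 0.00456). CYB5A, an electron carrier, fell by 0.7 ± 0.12 at 6 h (adjusted p = 0.00766). NR5A2, a nuclear receptor that drives steroid genes, fell by 0.62 ± 0.11 at 6 h (adjusted p = 0.0105) and rose by 1.34 ± 0.11 at 22 h (adjusted p = 0.000528). Without any 1 of the 6 h arrays, 3 to 5 of these partners passed at 6 h, without both arrays numbered 4 it was 4, and with the 22 h slide alone 5 passed at 22 h.

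Of 22 other carbonyl and aldehyde enzymes, 9 fell and 2 rose at 6 h, 6 fell and 6 rose at 22 h, and 8 were higher and 2 lower at 22 h than at 6 h, with medians of -0.4, -0.04 and 0.45. The shares that changed were 50%, 54.5% and 45.5%, against 24.3%, 20.4% and 15.1% of all tested genes. HPGD, which inactivates prostaglandins, fell by 2.88 ± 0.22 at 6 h (adjusted p = 0.000373) and fell by 2.97 ± 0.22 at 22 h (adjusted p = 0.000336). PTGR1, a prostaglandin and aldehyde reductase, fell by 1.76 ± 0.18 at 6 h (adjusted p = 0.000973) and was at -0.17 at 22 h. ADHFE1, a mitochondrial hydroxyacid dehydrogenase, rose by 2.17 ± 0.13 at 22 h (adjusted p = 0.000137) and was at -0.44 at 6 h, which did not pass. Without 22 h replicate 3, 7 of these enzymes passed at 22 h and 5 in the difference, and without 6 h replicate 2, 5 passed in the difference.

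Markers of the cell types were counted too, and 24.3% of all tested genes changed at 6 h and 20.4% at 22 h. The shares were 66.7% and 58.3% for granulosa and 66.7% and 88.9% for theca markers. They were 36.4% and 18.2% for leukocyte, 20% and 50% for endothelial and 25% and 0% for erythrocyte markers. Oocyte and cumulus markers had 20% and 0%. Leukocyte markers at 22 h, and endothelial, erythrocyte and oocyte markers at 6 h, lay near the share of all genes. Of 12 granulosa markers, 7 fell and 1 rose at 6 h and 6 fell and 1 rose at 22 h, and their summed intensity was 115300 to 151800 at 6 h and 53500 to 126300 at 22 h, against 135800 to 155000 in pre-LH RNA. INHA, INHBA and SERPINE2 were saturated on some arrays, most often in pre-LH RNA, so these sums are capped. Over the 9 markers that were never saturated the sums were 24790 to 27180 at 6 h and 15000 to 18640 at 22 h, against 23270 to 30180 in pre-LH RNA. This list holds HSD17B1 itself, and CYP19A1 and NR5A2 stand in it and among the steroid partners. Of 9 theca markers, 5 fell and 1 rose at 6 h and 7 fell and 1 rose at 22 h, with sums of 12770 to 17060 at 6 h and 15360 to 28230 at 22 h, against 23520 to 39380 in pre-LH RNA. None of the 9 was undetected in any group, and CYP17A1, the defining enzyme of theca cells, rose by 0.36 ± 0.08 at 6 h (adjusted p = 0.0239) and fell by 1.88 ± 0.08 at 22 h (adjusted p = 4.03e-05). Of 11 leukocyte markers, 4 rose and none fell at 6 h and none rose and 2 fell at 22 h (at an unadjusted p under 0.05, 1 fell at 6 h and 1 rose at 22 h). Of 10 tested endothelial markers, 1 rose and 1 fell at 6 h and 5 fell at 22 h. The leukocyte and endothelial counts moved by more than 1.5 times when single arrays were left out, down to 1 in each list at each time. No fibroblast or smooth muscle marker of 11 passed by limma at either time (2 fell at an unadjusted p under 0.05 at each), and 2 passed at 22 h without both arrays numbered 4. Of 4 erythrocyte markers 1 fell at 6 h (at an unadjusted p under 0.05, 1 fell and 1 rose), and of 5 tested oocyte and cumulus markers 1 rose at 6 h. In neither list did any marker pass at 22 h by limma, also at an unadjusted p under 0.05. The part of these cell types in the changes of the dehydrogenases was not tested.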

How the data were processed

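Granulosa cell RNA was measured on 8 2-colour arrays. Per the labels' protocols, the amplified RNA carried 1 of 2 dyes, Cy3 or Cy5, by chemical labelling. Per the file headers, the authors' scanner files hold unnormalised intensity of each spot and its background in both dyes. Log2 ratios from the authors' deposited table of processed values were an alternative only. Over probes they correlated with the post-LH over pre-LH ratios at r of 0.822 to 0.906, with slopes of 1.07 to 1.26 and medians of -0.016 to 0.00502, so they were read as turned for the dye swap and centred near 0. How that table was made is not stated in the labels.

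Intensity was corrected with normexp (offset 50) and normalised within arrays by loess with 1418 control spots at weight 0 (limma 3.58.1, R 4.3.3). Tested probes were those brighter than the 95th percentile of 153 negative controls in a share of 0.5 or more of the channels of 1 or more RNA groups, 38453 of 43794 in all. Symbols came from the platform annotation: 21790 probes had 1 symbol, 22004 none and 0 several. Symbols of 1524 probes were updated through the RefSeq table (assembly ARS-UCD2.0), and 0 of the member symbols changed. One model held 6 h, 22 h and dye effects over all 8 arrays (5 residual degrees of freedom, prior of 1.94), was tested on simulated data, and gave adjusted p over all tested probes. Levels of single channels were taken after loess and Aquantile normalisation. The dye effect passed for 2896 probes and 3 members at their brightest probe.

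Named with values were members that passed with a log2 change of at least 0.5, and a list of members with known roles in the ovary or in retinoid or prostaglandin metabolism. Members, lists and rules were chosen with earlier results of these data known.

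Deviations of same-numbered arrays from their group means correlated across the slides with r of 0.328, 0.526, 0.414 and 0.224. These arrays share a dye orientation and a place on the slide, and with the dye effect removed r was -0.103, 0.179, 0.108 and -0.296. Pre-LH levels differed less between slides for the same number (SD 0.142 to 0.211) than for different numbers from 1 to 3. On the ground of these pre-LH levels, same-numbered arrays were paired in the replicate block only. The main model, which gave the calls and their SE, had no pairing term. If a pre-LH sample was reused, p-values do not account for it, and where replicates are not separate animals they measure only the spread between these samples.

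The alternatives were no background correction, median centring, other filters on dim probes, the authors' processed log2 ratios, no dye term, the mean of a gene's probes, each slide alone, the replicate block and leaving out each array. Leaving out both arrays numbered 4, counting only bright genes, leaving out members whose probes differ in call, and marker sums without saturated genes were chosen after seeing the data. The number of arrays limits the precision.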

Additional observations from a re-analysis of the deposited data

Results flagged for a closer look

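In 4 of 88 groups of 4 arrays, 1 array stood far from the other 3 by Dixon's test, which chance gives in about 1 in 20 groups. ALDH16A1 at 22 h had 0.43 in replicate 1, with the others between -0.11 and -0.09. RDH11 at 22 h had -0.4 in replicate 3, with the others between -0.16 and -0.12. DHRS9 at 22 h had 0.11 in replicate 3 (others -0.01 to 0), and RDH12 at 22 h had 0.13 in replicate 4 (others all 0), both with dim probes.

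For 19 members the change at 22 h differed from the change at 6 h by limma's interaction contrast, and since each time had its own slide, slide and time cannot be told apart. The differences, as 22 h minus 6 h on the log2 scale, were 1.99 for HSD3B1, 1.7 for AKR1A1, 1.13 for RDH10 and 1.08 for ALDH3A2. They were 0.97 for ALDH3B1, 0.97 for HSD11B1L, 0.96 for HSD17B4 and 0.95 for HSD17B11. They were 0.87 for ALDH7A1, 0.85 for ALDH2, 0.64 for DHRS7 and 0.6 for ALDH18A1. Smaller ones were 0.56 for ALDH1L2, 0.51 for CBR4, 0.3 for CBR3 and 0.25 for DHRSX. The 3 members lower at 22 h were RDH13 with -1.04, HSD3B7 with -0.99 and RDH11 with -0.97.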

How the results depend on the processing

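No call among the 57 made for members reversed under any alternative run. Median centring in place of loess left 0 members for 6 h, 1 for 22 h and 0 for the difference, and 85, 136 and 22 of all genes. The call that remained was the fall of ALDH1A1 at 22 h. Of the 57 calls, 21 held under every alternative but that one, and 32 held in every fit that left out 1 array. Leaving out 1 array gave 13 to 22 members for 6 h, 8 to 16 for 22 h and 11 to 19 for the difference. The low ends were 13 without 6 h replicate 1, 8 without 22 h replicate 3, and 11 without 6 h replicate 2, beside 12 without 22 h replicate 3. Over all genes these fits called 1967 and 1933 at 6 h without 6 h replicate 1 or 2, 1473 at 22 h without 22 h replicate 3, and 1328, 1187 and 1291 between the times without 6 h replicate 1, 6 h replicate 2 or 22 h replicate 3. The 22 h slide alone called 7 members (11.3%) and 1025 genes (7.25%) at 22 h. Leaving out both arrays numbered 4 gave 12, 10 and 11 members (19.4%, 16.1% and 17.7%), against 2445, 2220 and 1721 of all genes (17.3%, 15.7% and 12.2%). Without members whose probes differ in call, 14 of 55 passed at 6 h (25.5%, against 24.3% of all genes) and 11 of 56 at 22 h (19.6%, against 20.4%). For the difference it was 13 of 56 (23.2%, against 15.1%). The shares over all genes were not thinned in this way. No member had probes called in opposite directions. The replicate block, which pairs same-numbered arrays, gave 20, 13 and 17 members (32.3%, 21% and 27.4%). Of all genes it called 23.8%, 20.2% and 14.3%. It changed no call other than those given beside the results, apart from ALDH6A1 and DHRS1. ALDH6A1 at 6 h (-0.24, adjusted p = 0.0248) and the difference of DHRS1 (-0.53, adjusted p = 0.0123) then passed. The cause of these losses was not tested. Signal over background limits what the array can show: 27 members had a mean log2 intensity below 7.5, of which 16 were above background in all 16 channels.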

Other observations

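Some members stood apart in level on the arrays numbered 4. In 6 of 62 members the level on the arrays numbered 4 lay at least 1 log2 unit outside the range of the arrays numbered 1 to 3, in both channels on both slides. ADH5, ALDH1A1, DHRS7, HSD17B10 and HSD17B4 were lower there, and DHRS12 was higher. This was not counted over all tested genes, and the arrays numbered 4 stood apart in pre-LH level over all tested probes. The count therefore cannot be read as particular to these enzymes. For HSD17B10 the gap was -2.24 and -3.23 log2 units in 6 h and 22 h RNA and -2.36 and -2.66 in the pre-LH RNA of those slides, while its log2 ratios on the arrays numbered 4 were 0.58 and 0.04. HSD17B8, which did not meet this limit in every channel, had 11.32 in 6 h and 10.44 in 22 h RNA on the arrays numbered 4, against 11.48 and 11.39 in the pre-LH RNA of those arrays. On arrays numbered 1 to 3 it had 9.32 to 9.82 after LH and 9.55 to 9.91 before it, and 2 of its other probes were likewise high on number 4.

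Some members lie next to each other in the reference gene order, and in each pair or run below the neighbour had a dim probe. RDH11 rose at 6 h by 0.76, while its neighbour RDH12 on chromosome 10 was at -0.04. HSD17B11 fell at 6 h by 0.57, and its neighbour HSD17B13 on chromosome 6 was at 0.01. ADH5 fell at 6 h by 0.52, while ADH4 and ADH6, in the same run of genes on chromosome 6, were at 0.06 and -0.11 with probe intensities of 7.01 and 7.33. The ADH4 probe was above background in 1 of 4 pre-LH channels on each slide, so its value says little about a change. AKR1B1 and its neighbour AKR1B10 on chromosome 4 did not pass at either time.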
